A study of Mus musculus with 150 samples.

Results

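Slc4a11, Cldn4, Tigit, Plaur, Itga2 and Krt8 are marker genes of the high-plasticity cell state, a tumour cell state described in this mouse model of lung adenocarcinoma. Their DNA copy number was read from the 6 genomic bins whose gene annotation lists one of them, out of 5331 bins in all, of which 4806 on the autosomes were kept. Each of the 6 genes lay inside a single bin of about 500 kb. The data were log2 ratios of sequencing depth in single cells. They came from 1 mouse, killed 30 weeks after its tumours were induced, whose lung tumours T1, T7 and T9 were microdissected as 3 separate samples. Each tumour gave 50 cells, of which 47 in T1, 48 in T7 and 50 in T9 passed a filter on coverage and noise. The mouse was of mixed C57BL/6 x Sv129 background, and the strains named in the labels include Trp53flox/flox with Rosa26LSL-tdTomato and Rosa26LSL-Luciferase reporters. Tumours in this colony were started with AdSPC-Cre, an adenovirus that expresses Cre from a surfactant protein C promoter active in alveolar type 2 cells, or with AdCMV-FlpO, and the labels do not say which was used here. They give alveolar type 2 (AT2) cells of lung tissue as the source. No RNA was measured in these cells, so neither the AT2 identity nor the plastic state could be checked by expression, and all values below are copy number and not expression.

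The high-plasticity state is known as a transitional epithelial state of advancing lung adenocarcinoma, in which tumour cells express genes of several lineages and can give rise to other tumour cell states. Its markers include surface and junction proteins, a keratin of simple epithelia and members of the urokinase and integrin systems. Copy number is one of the inputs to expression, and a gain or loss of a chromosome arm alters the gene dose of all genes on it together.

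Each level is a log2 ratio relative to the autosomal median of the same cell, so 0 is the typical level of that cell and a whole-genome doubling cannot be seen. Each chromosome of each cell was divided into segments of at least 10 Mb. A gene counted as gained in a cell if its segment mean reached 0.32 (2.5 copies against 2 on the log2 scale), and as lost if that mean was -0.42 or lower (1.5 copies against 2). A change confined to less than 10 Mb therefore enters the calls only as part of a longer segment. Every group was 1 tumour of 1 mouse, so no test between tumours was possible and the tumours are given side by side. Intervals on shares are exact Clopper-Pearson 95% intervals over cells. Where no cell was called, the upper limit given is instead 3 cells over the number of cells, and both cover counting error only. The median sequenced length was 97.7 Mb per kept cell in T1 (range 20.5 to 170.1 Mb), 69.3 Mb in T7 (24.6 to 140.3 Mb) and 56.7 Mb in T9 (43.3 to 82.1 Mb), and the median noise between neighbouring bins was 0.191, 0.146 and 0.133 in the same order. T1 thus had the most bases and the largest noise of the 3 tumours.

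The bins held many other genes, and the ratios cannot separate a marker from its neighbours. The promoter DNA of 3 of the markers is shown because it lies in the bins whose copies were counted and because Itga2, Cldn4 and Plaur were called in more cells than Tigit and Krt8; Slc4a11 is not listed in the promoter table used. The sequences are the 250 bases before a RefSeq transcription start in GRCm38.p6, written 5′ to 3′ on the gene's own strand, in the order Cldn4 (chr5:134946935-134947184, minus strand), Plaur (chr7:24462233-24462482, plus strand) and Itga2 (chr13:114932101-114932350, minus strand). The annotated Plaur gene begins at chr7:24460937, so its stretch lies inside the gene and precedes an internal start. Capitals mark matches to TGANTCA, the palindromic consensus bound by AP-1, a transcription factor of the Fos and Jun families.
Cldn4: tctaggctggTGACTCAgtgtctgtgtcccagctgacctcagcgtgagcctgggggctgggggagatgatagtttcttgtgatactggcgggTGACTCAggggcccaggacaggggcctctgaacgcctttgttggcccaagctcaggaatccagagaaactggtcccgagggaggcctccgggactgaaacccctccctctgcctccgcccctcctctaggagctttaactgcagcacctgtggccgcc
Plaur: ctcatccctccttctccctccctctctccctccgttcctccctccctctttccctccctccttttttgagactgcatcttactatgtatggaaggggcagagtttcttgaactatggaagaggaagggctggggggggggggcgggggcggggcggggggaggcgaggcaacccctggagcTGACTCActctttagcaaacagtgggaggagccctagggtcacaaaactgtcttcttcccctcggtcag
Itga2: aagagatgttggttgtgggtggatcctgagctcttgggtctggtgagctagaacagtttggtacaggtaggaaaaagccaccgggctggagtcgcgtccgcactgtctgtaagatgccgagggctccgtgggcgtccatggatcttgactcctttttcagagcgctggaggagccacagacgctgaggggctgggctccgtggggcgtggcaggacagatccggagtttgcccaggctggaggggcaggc
The Cldn4 stretch held 2 matches, which began 240 and 158 bases before the start. The Plaur stretch held 1, which began 69 bases before its internal start, and the Itga2 stretch held none. Of 32851 promoter stretches of this length in the table, 6.75% held at least 1 match and 0.338% held 2 or more. Of the 5 markers listed there, 2 held a match, and Tigit and Krt8 held none. A match is a description of the letters, and the copy number values say nothing on binding.

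Of the 6 markers, 1 was gained in at least 20% of the T7 cells (Slc4a11), 1 was lost in at least 20% of the T1 cells (Itga2), and none met this criterion in T9. Among all autosomal bins, 13.6% met it as gained in T7 and 20.1% met it as lost in T1. In T9, 7.07% of the autosomal bins met it as gained and 4.2% as lost. The remaining shares were 11.7% gained in T1 and 2.52% lost in T7. A count of 1 in 6 markers is close to the background in T1 and T7, and the markers as a set are not shown to differ from other bins. The median of the 6 segment medians was -0.10 in T1 against 0.09 over all autosomal bins, -0.03 in T7 against -0.03, and 0.02 in T9 against 0.02.

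**Figure D1:**
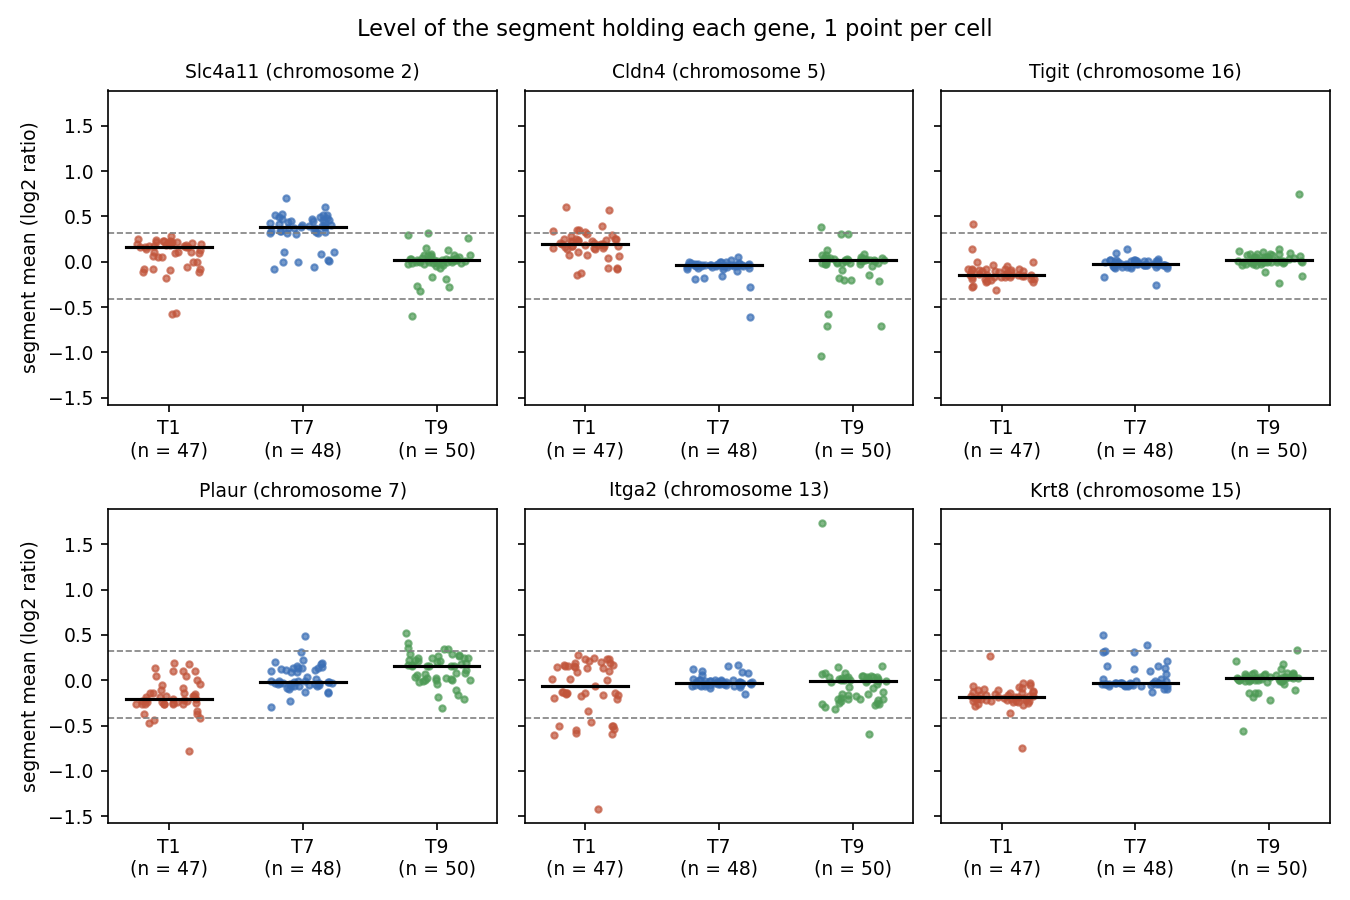
Segment mean (log2 ratio) at each of the 6 genes, with 1 point per cell of T1 (n = 47), T7 (n = 48) and T9 (n = 50), black bars at the median and dashed lines at the gain (0.32) and loss (-0.42) thresholds. Most T7 points of Slc4a11 lie above the gain line, 10 T1 points of Itga2 lie below the loss line, and 1 T9 point of Itga2 stands at 1.73.

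Slc4a11 encodes a membrane transporter of the SLC4 family that is best known from the corneal endothelium. Its bin lies at chr2:130546171-131045649 with 18 annotated genes, among them Ptpra and Oxt. In T7 the segment holding Slc4a11 had a median of 0.39 (lowest -0.08, highest 0.70, SD over cells 0.18, n = 48 cells), a 1.31-fold level. In T1 the segment median was 0.16 (lowest -0.57, highest 0.29, n = 47), and in T9 it was 0.02 (lowest -0.60, highest 0.31, n = 50). Most T7 cells lay above every T1 and T9 cell, while the low T7 cells overlapped both other tumours.

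Slc4a11 was gained in 35 of 48 T7 cells (72.9%, 58.2 to 84.7%). No gain was called among 47 T1 cells (upper limit 6.38% of cells) or among 50 T9 cells (upper limit 6%). Ratios were also taken from depth, as log2 depths centred on the cell's autosomal median with no correction of bins. With these, 40.4% of T1 cells were gained and 68.8% of T7 cells. Losses were called in 2 T1 cells, at -0.57 and -0.56, and in 1 T9 cell, at -0.60. The T7 cells formed an upper and a lower group in the plot of segment means. Of the 13 T7 cells not called, 4 lay just under the threshold and 9 lay at or below 0.11. The lowest gained cell was at 0.33. Stricter thresholds of 0.45 and -0.70 therefore left 27.1% of T7 cells gained.

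The gain in T7 reached far beyond Slc4a11. The called segments had a median length of 169 Mb and the shortest was 16.98 Mb. Those of 169 Mb had means of 0.33 to 0.50. Several others began at chr2:101076897 or chr2:101576376, were 70.4 to 70.9 Mb long and had means of 0.39 to 0.53. The bins on either side of the gene's bin had medians of 0.41 and 0.41 against 0.39 for the bin itself. Across T7 cells, the median of 11 bins around Slc4a11 correlated with the rest of chromosome 2 with r = 0.91 (Spearman 0.64, n = 48 cells of 1 tumour, whose levels all carry the same cell's centring). By medians of 11 bins, the bin on another chromosome whose level followed Slc4a11 most closely in T7 was that of Tgfa on chromosome 6, with r = 0.73. Of the 35 gained cells, 33 also carried a gain of chromosome 6, which is 94.3% of the Slc4a11 gains and 89.2% of the 37 chromosome 6 gains, and 9 cells had neither. The gained cells had a median noise of 0.161 and 72.7 Mb, and the other T7 cells 0.136 and 52.6 Mb. The part of noise and depth in the split was not tested.

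In T1, the Slc4a11 bin itself differed from its segment. The bin's median was -0.08 (lowest -0.79, highest 0.32), below the segment median of 0.16, and it lay under the rest of chromosome 2 in all but 5 of the 47 cells. Such departures of a single bin occur at many places in T1, where the medians of neighbouring bins vary widely, as the plot of the surrounding bins shows.

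**Figure D2:**
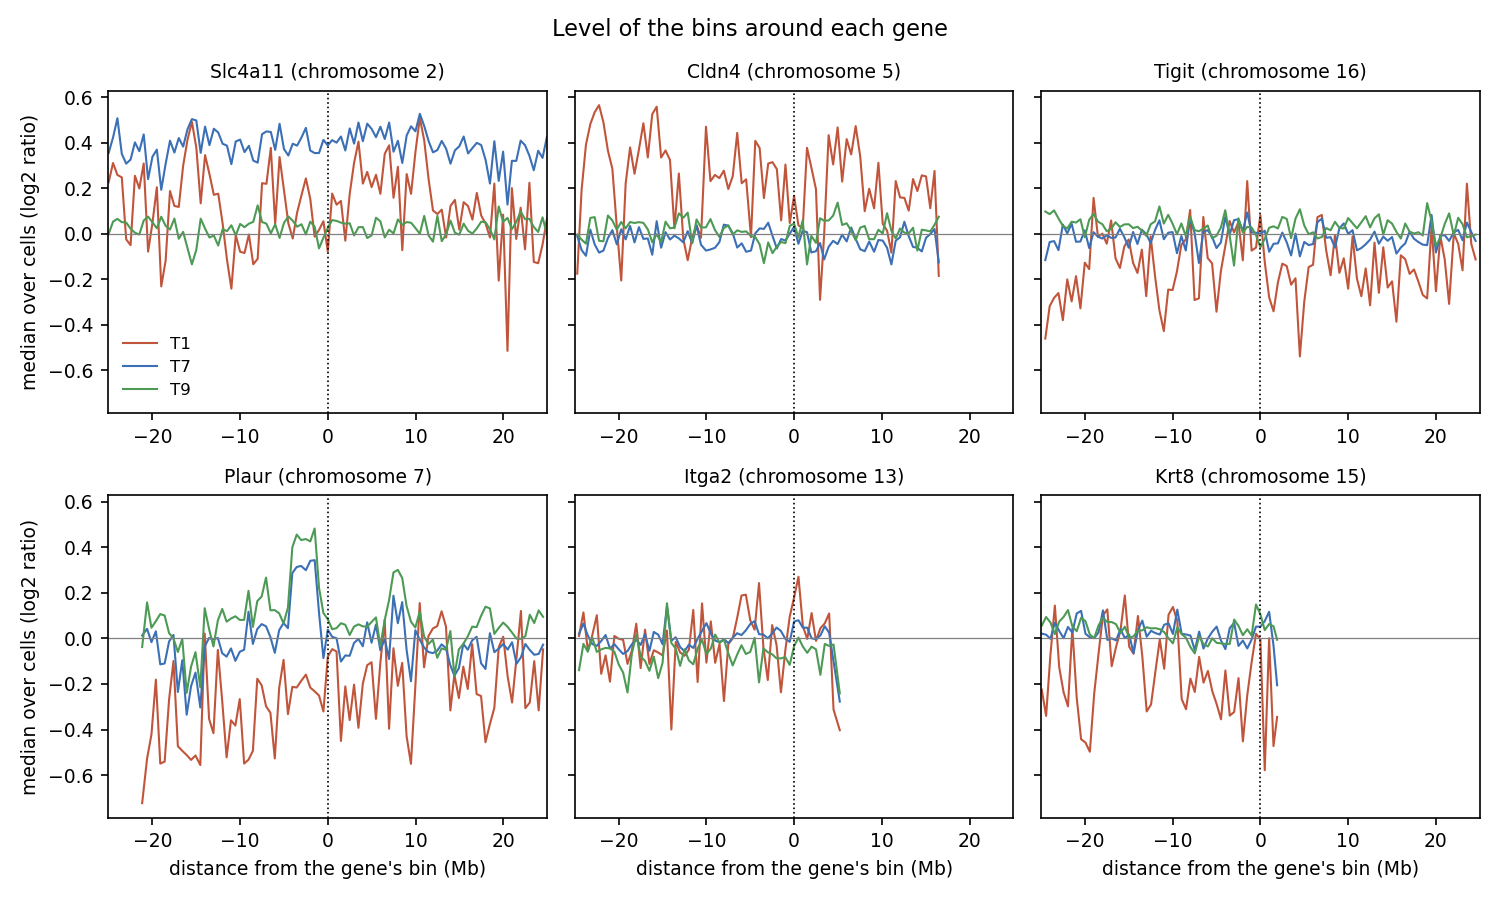
Median log2 ratio over cells of each bin within 25 Mb of the 6 genes, against distance from the gene's bin in Mb, with 1 line per tumour (T1, T7, T9). The T7 line stays near 0.4 on both sides of Slc4a11, the T1 line swings between neighbouring bins, and a raised run in T7 and T9 ends just before Plaur.

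Cldn4 and Krt8 are structural genes of epithelia. Cldn4 encodes a claudin, a transmembrane protein of tight junctions, and its bin at chr5:134756945-135248167 holds 19 genes including Cldn3. The Cldn4 segment had a median of 0.20 in T1 (lowest -0.15, highest 0.60), -0.04 in T7 (lowest -0.61, highest 0.05) and 0.01 in T9 (lowest -1.04, highest 0.38). The T1 cells were mostly higher than the T7 cells, with 42 of 47 T1 cells above 0 against 3 of 48 T7 cells, and the ranges of all 3 tumours overlapped.

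Gain of Cldn4 was called in 7 of 47 cells of T1 (14.9%, 6.2 to 28.3%), 0 of 48 of T7 (upper limit 6.25%) and 1 of 50 of T9 (2%). The 7 gained T1 cells lay between 0.33 and 0.60, and 7 T1 cells were within 0.05 of the gain threshold, so the T1 share rests on cells near it. Their segments were 40.7 to 148.7 Mb long. With ratios from depth, the T1 share was 93.6%.

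Loss of Cldn4 was called in 4 of 50 T9 cells (8%, 2.22 to 19.2%), in 1 of 48 T7 cells and in 0 of 47 T1 cells, with an upper limit of 6.38%. The 4 T9 cells lay at -1.04, -0.71, -0.71 and -0.58, and the segments were similar in length, from 44.2 to 50.1 Mb. A level of -1 is that of 1 copy where the rest of the cell has 2. The T9 share was at least 8% under every alternative except the stricter thresholds, where it was 6%, and the median of the whole chromosome, where it was 2%.

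Krt8 encodes keratin 8, an intermediate filament protein of simple epithelia that pairs with keratin 18. Its bin at chr15:101671248-102169571 lies in the type II keratin cluster near the chromosome end and holds 19 genes, Krt18 among them, so the pair was measured by 1 bin. The Krt8 segment had a median of -0.19 in T1 (lowest -0.74, highest 0.27), -0.03 in T7 (lowest -0.13, highest 0.50) and 0.02 in T9 (lowest -0.56, highest 0.34). In T1, 46 of 47 cells lay below 0. That direction differed between the deposited ratios and ratios from depth. The 11 bins around Krt8 in T1 had a median of -0.25 in the former and 0.25 in the latter. Krt8 was gained in 2 T7 cells, at 0.39 and 0.50, and in 1 T9 cell at 0.34, and it was lost in 1 T1 cell at -0.74 and in 1 T9 cell at -0.56. In 1 of the 2 T7 cells and in the gained T9 cell the whole of chromosome 15 was 1 segment.

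Tigit encodes an inhibitory receptor known from T cells and natural killer cells, which binds the poliovirus receptor family. Its bin at chr16:43247713-43747913 holds 7 genes, among them Zbtb20, and had a weight in the authors' table of 0.724, the 2.52 percentile of all autosomal bins. The Tigit segment had a median of -0.14 in T1 (lowest -0.31, highest 0.41), -0.03 in T7 (lowest -0.26, highest 0.15) and 0.01 in T9 (lowest -0.24, highest 0.74). T1 was lowest, with 45 of 47 cells below 0, and its cells overlapped those of T7 and T9.

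Few copy number changes of Tigit were called. It was gained in 1 T1 cell at 0.41 and in 1 T9 cell at 0.74, where all of chromosome 16 was raised and Krt8 was gained as well. It was lost in no cell, with upper limits of 6.38% for T1, 6.25% for T7 and 6% for T9. With ratios from depth it was lost in 55.3% of T1 cells, and the level of the 11 bins around it in T1 was -0.37 against -0.10 in the deposited ratios. The Tigit bin itself was noisy, with an SD over cells of 0.345 in T9, above 98.6% of the autosomal bins of that tumour, 0.284 in T7 and 0.266 in T1, where 72.9% of the bins lay below it.

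Plaur encodes the receptor of urokinase, which concentrates plasminogen activation at the cell surface. Its bin at chr7:24164167-24663000 holds 22 genes, among them a group of zinc finger genes. The Plaur segment had a median of -0.21 in T1 (lowest -0.78, highest 0.20), -0.01 in T7 (lowest -0.29, highest 0.49) and 0.16 in T9 (lowest -0.31, highest 0.52). T1 cells were mostly low and T9 cells mostly high, with 38 of 47 T1 cells below 0 and 42 of 50 T9 cells above it, but the ranges overlapped. The T1 direction again differed between the deposited ratios and ratios from depth. The 11 bins around Plaur had a median of -0.24 in the former and 0.14 in the latter. With ratios from depth, 17.02% of T1 cells and 16.7% of T7 cells were gained.

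Loss of Plaur was called in 4 of 47 T1 cells (8.51%, 2.37 to 20.4%), at -0.78, -0.47, -0.44 and -0.42, in segments of 25.2 to 63.3 Mb. Gain was called in 5 of 50 T9 cells (10%, 3.33 to 21.8%), between 0.35 and 0.52, and in 1 T7 cell at 0.49. Of the 5 gained segments in T9, 4 were under 20 Mb, and the T7 segment was 10.0 Mb long.

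In T7 and T9, values were higher in a run of bins before Plaur than in its own bin. A run of 6 bins (chr7:20122070-23166500, 3.04 Mb), which lists mainly Vmn1r vomeronasal receptor genes and pseudogenes, ends 0.998 Mb before the Plaur bin. The median of the run over cells was 0.44 in T9, 0.32 in T7 and -0.23 in T1, against 0.08, 0.04 and -0.08 for the Plaur bin in the same order. The 2 bins between the run and the Plaur bin were at 0.165 in T9, 0.023 in T7 and -0.290 in T1. The 5 bins after the Plaur bin were at 0.054, -0.040 and -0.231 in the same order. The run reached the gain threshold in 36 of 50 T9 cells, 22 of 48 T7 cells and 3 of 47 T1 cells. Its bins had weights of 0.630 to 0.666, within the lowest 1.14% of autosomal bins. When the 6 bins and the bin next to them were left out, Plaur was gained in 2% of T9 cells and 0% of T7 cells and lost in 14.9% of T1 cells, and with segments of at least 2.5 Mb it was gained in 2% and 0% as well. The run was picked because it was raised, and leaving it out by itself lowers the share of gains. Why the run was raised was not tested.

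Itga2 encodes the alpha-2 subunit of an integrin that binds collagen and pairs with the beta-1 subunit. Its bin at chr13:114499968-114999520 holds 4 annotated genes, Mocs2, Itga2, CT025598.1 and Itga1, and lies near the end of chromosome 13. The Itga2 segment had a median of -0.06 in T1 (lowest -1.42, highest 0.28, SD 0.34), -0.03 in T7 (lowest -0.15, highest 0.17, SD 0.06) and -0.01 in T9 (lowest -0.59, highest 1.73, SD 0.30). The medians of the 3 tumours were alike, whereas the spread over cells was wider in T1 than in T7. The T9 spread of segments rests largely on a single cell, without which the segment SD was 0.15. The SD of the bin without that cell was 0.283, still above the median of 0.206 over all autosomal bins in T9. The Itga2 bin had a weight of 0.764, the 11.3 percentile of all autosomal bins. The SD of the bin itself was 0.459 in T1 and 0.416 in T9, above 99.5% and 99.8% of the autosomal bins of the tumour.

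In T1 the Itga2 segment split into 10 lost cells, 14 cells between the loss threshold and 0, and 23 cells at or above 0. The 10 losses are 21.3% of 47 cells (10.7 to 35.7%), just over the 20% criterion. The lost cells lay at -1.42 and otherwise between -0.61 and -0.46, and the nearest cell not called was at -0.34. The lowest cell had 0.374 of its autosomal level. The lost segments were 24.3 to 95.2 Mb long, with a median of 88.4 Mb, and none spanned the whole of chromosome 13.

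The T1 share depends on the measure. It was 19.1% by the median of the whole chromosome, 14.9% by a weighted mean of 11 bins, 12.8% by their median, 16% with a stricter filter on cells and 2.13% under the stricter thresholds. The Itga2 bin alone had a median of 0.18 in T1, above the segment, and by the bin alone 14.9% of cells were lost and 29.8% gained. The lost cells had a median noise of 0.204 and 88.6 Mb, and the other T1 cells 0.190 and 99.1 Mb. The part of these in the calls was not tested.

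The T1 cells with Itga2 loss also carried other changes. All 10 were among the 13 T1 cells with loss of chromosome 10 (76.9% of them). On the same chromosome 13, the 5 bins from Sox4 to Irf4 (chr13:28663351-31175104), which lie 83.3 Mb before the Itga2 bin, were at a median of 1 or more in 8 of the 10 (80%), and those 8 are 66.7% of the 12 T1 cells with that level. Loss of Plaur was shared by 1 of the 10, and 3 of the 10 had no other marker called. By the same measure, the bin on another chromosome that followed Itga2 most closely in T1 was that of Nup93 on chromosome 8, with r = 0.77 over 47 cells.

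Itgb1, the gene of the integrin beta-1 subunit, was raised in many T1 cells. Its segment had a median of 0.25 (lowest -0.20, highest 0.48), and it was gained in 18 of 47 cells (38.3%, 24.5 to 53.6%). The gain of Itgb1 and the loss of Itga2 were found together in 1 cell, which is 10% of the Itga2 losses and 5.56% of the Itgb1 gains. Their segment means correlated with r = 0.41 (Spearman 0.40) over the 47 cells. Itgb1 lies on chromosome 8, like the Nup93 bin, which followed Itga2 in T1 with r = 0.77 by medians of neighbouring bins. That value and the 0.41 come from different measures. Whether the relation of Itga2 and Itgb1 goes beyond that of Itga2 with chromosome 8 was not tested.

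In T9 a single cell, numbered 180130 in the labels, had a high level of Itga2. The bin was at 2.08, a 4.22-fold level, and the segment at 1.73, while the next highest T9 cell had 0.41 for its bin and 0.16 for its segment. The bin held 35.8 kb of sequenced bases in that cell, against a median of 8.36 kb in the other T9 cells. Its depth and noise, 56.4 Mb and 0.130, were close to the T9 medians of 56.7 Mb and 0.133. Plaur was also called gained in that cell, at 0.41.

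The raised region in that cell was large and uneven. In a running median of 3 bins, levels of 1 or more ran for 32.03 Mb (chr13:84971570-116997736, 64 bins, 167 protein-coding genes). Within it, running medians of 1.5 or more formed a run of 9.54 Mb that ends before Itga2 and a run of 12.0 Mb (chr13:104009338-115998628) that holds it, with a mean of 1.97 and 58 protein-coding genes. Itga2 was thus 1 gene of a broad raised region. An autosomal segment with a mean of at least 1 was found in 2 of 50 T9 cells, 0 of 48 T7 cells and 10 of 47 T1 cells, and 4.79% of the autosomal bins lay in one in at least 1 T9 cell. Without the cell, the level of the 11 bins around Itga2 in T9 was -0.02, as with it.

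**Figure D3:**
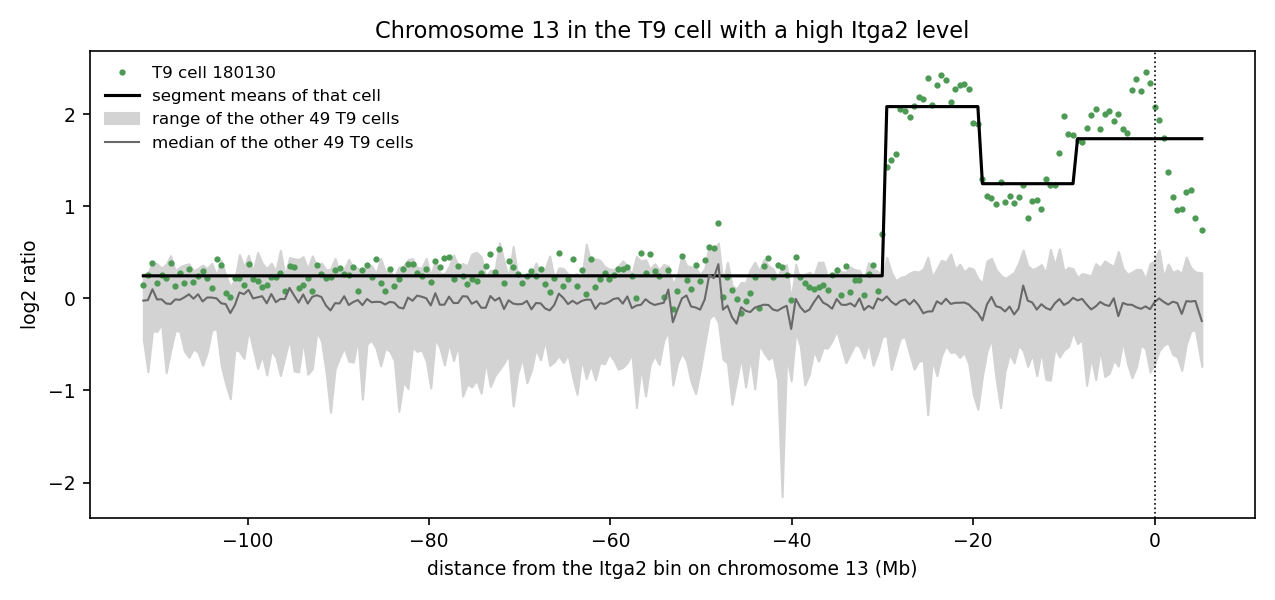
Log2 ratio of each chromosome 13 bin in T9 cell 180130 (points) with its segment means (black line), against distance from the Itga2 bin in Mb, over the range (grey band) and median (grey line) of the other 49 T9 cells. Over most of the chromosome the cell lies inside the band but mostly above the grey line, with a segment mean of 0.24. It rises above 1 in the last part, where the Itga2 bin is at 2.08.

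In each tumour, most cells had at most 1 of the 6 markers called. How often other sets of bins are called together was not counted. In T7, 33 of 48 cells had exactly 1 marker called, which was Slc4a11 gained in 32 of them, 12 cells had none and 3 had 2. In T1, 30 of 47 cells had none, 10 had 1, 6 had 2 and 1 had 3. Every T1 cell with 2 or 3 called markers had Itga2 lost. In T9, 37 of 50 cells had none, 10 had 1 and 3 had 2. No cell had more than 3 of the 6 called.

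The combinations differed from cell to cell. Counting cells without any call as 1 pattern, T1 had 9 patterns, T7 had 5 and T9 had 10. The most frequent patterns of 2 or more markers were Itga2 loss with Cldn4 gain in 3 T1 cells, with Slc4a11 loss in 2 T1 cells, and Slc4a11 gain with Krt8 gain in 2 T7 cells. The 1 cell with 3 called markers, in T1, had Cldn4 gained and Plaur and Itga2 lost. Over the 47 T1 cells, the segment means of Slc4a11 and Itga2 correlated with r = 0.60 (Spearman 0.52), and those of Slc4a11 and Krt8 with r = -0.53 (Spearman -0.33). Over the 48 T7 cells, the segment means of Slc4a11 and Plaur correlated with r = -0.65 (Spearman -0.64). Medians of 11 bins gave r = 0.57, -0.34 and -0.50 in the same order, and the single bins gave 0.27, -0.29 and -0.05. All 3 relations were thus weakest with single bins. They were the 3 with the largest absolute r of segment means among all marker pairs in the 3 tumours. Next came Itga2 and Krt8 in T1, with r = -0.52 (Spearman -0.54). The levels of a cell share its centring, and 11-bin medians around Plaur take in part of the raised run before it. The part of these in the relations was not tested.

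**Figure D4:**
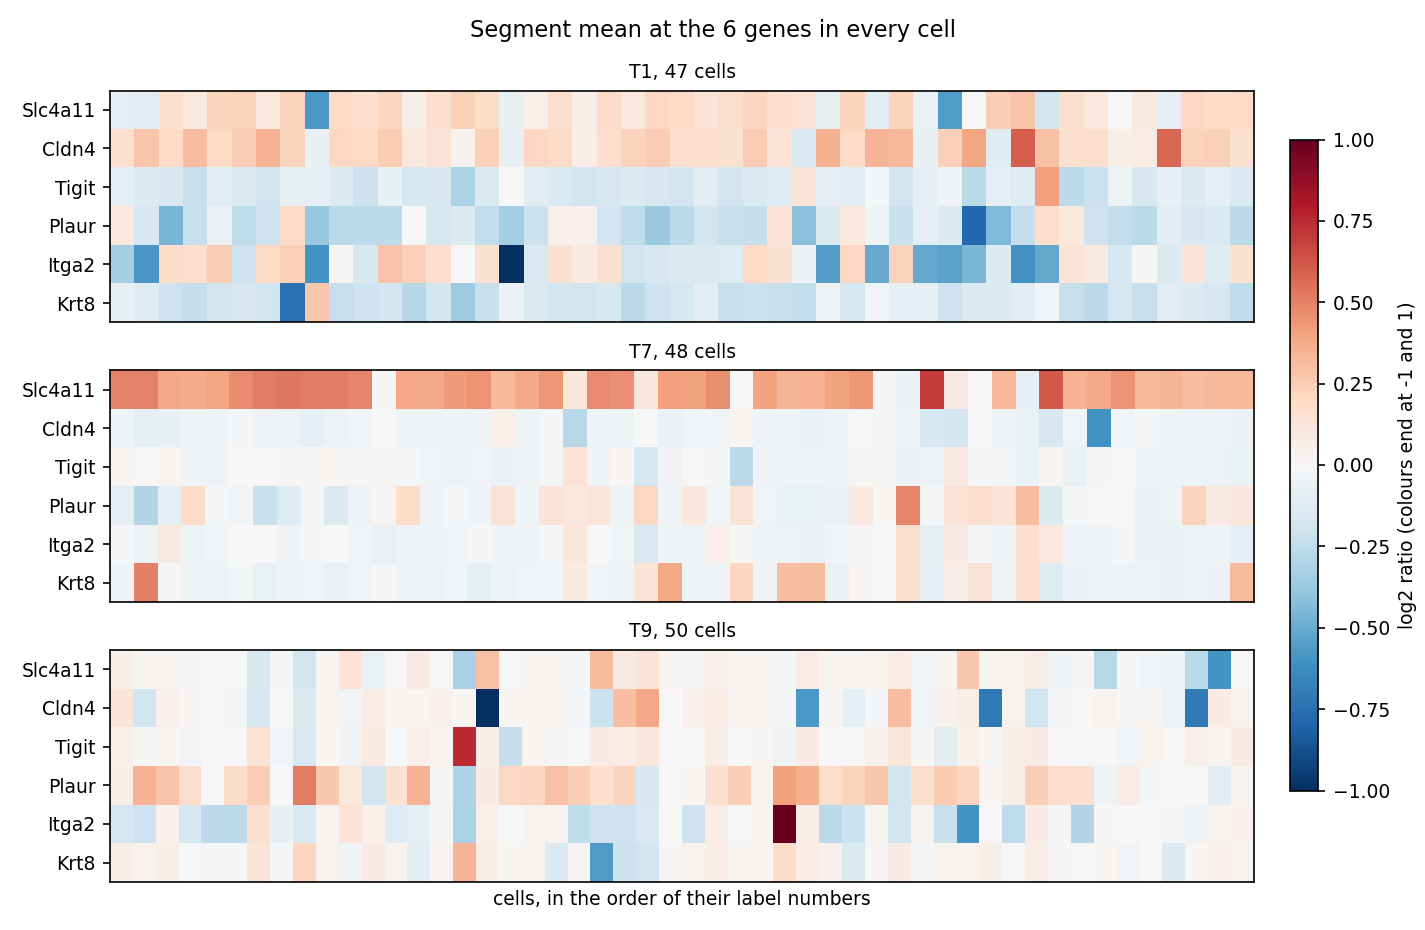
Segment mean (log2 ratio, blue below 0 and red above) at each of the 6 genes (rows) in every kept cell (columns, in the order of label numbers) of T1 (47), T7 (48) and T9 (50). Slc4a11 is red in most T7 cells. The 10 T1 cells with Itga2 lost are blue, of which only the cell at -1.42 is at the dark end, and most other fields are pale.

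The partners of the markers were read in the same way: 20 genes of the same families, ligands, receptors and adaptors, in 22 bins, with Nectin2 and Pvr in 1 bin. Of these, 4 of 20 met the 20% criterion in T1, 0 in T7 and 2 in T9. Among all autosomal bins, 31.8% met it in either direction in T1, 16.1% in T7 and 11.3% in T9, so the partner genes were not called more often than other bins. In T1, Itgb1 and Cd226, an activating receptor that shares ligands with Tigit, were gained, Cd226 in 10 of 47 cells (21.3%). Cldn18, the claudin typical of alveolar epithelium, was lost in 44 of 47 T1 cells (93.6%, median -0.64) and in 47 of 50 T9 cells (94%, median -0.62). Ocln, which encodes the tight junction protein occludin, was lost in 10 T1 cells and lies on chromosome 13 like Itga2. Krt19, a simple-epithelium keratin, was lost in 42 of 50 T9 cells (84%, median -0.56). Cldn18 lies on chromosome 9 and Krt19 on chromosome 11. Each call is that of a segment of at least 10 Mb, which holds other genes too.

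The ligands of the Plaur and Tigit receptors did not meet the criterion either. Plau, which encodes urokinase, was gained in a single cell of T1 and of T9 and lost in 2 of 48 T7 cells. Pvr, a ligand of Tigit whose bin lies on chromosome 7 like Plaur, was lost in 7 of 47 T1 cells (14.9%) and gained in 2 of 48 T7 cells (4.17%) and 6 of 50 T9 cells (12%). Its bin adjoins the raised vomeronasal run, and by the bin alone Pvr was lost in 16 of 47 T1 cells and gained in 5 of 48 T7 cells and 4 of 50 T9 cells.

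A list of 15 genes of transitional and injury-response alveolar cells was read as well. Of these, 2 of 15 met the criterion in T1, 1 in T7 and 0 in T9, against the same 31.8%, 16.1% and 11.3% of all autosomal bins. Sfn, which encodes the 14-3-3 sigma protein and lies on chromosome 4, was lost in 45 of 47 T1 cells (95.7%, median -0.69). Cd24a, a surface sialoglycoprotein gene, was lost in 12 of 47 T1 cells (25.5%). Itgb6, the gene of an integrin beta subunit of injured epithelium, lies on chromosome 2 like Slc4a11 and was gained in 35 of 48 T7 cells (72.9%). The median level over the 20 partner genes was -0.14 for T1, -0.03 for T7 and 0.02 for T9, and over the 15 genes of the second list it was 0.01, -0.04 and 0.01 in the same order.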

How the data were processed

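The submitters' processing notes name BWA 0.7.17 and the build GRCm38. The authors deposited 3 tables with 1 column per cell: coverage depth per bin (a signal), a log2 ratio per bin, and a weight per bin (a score between 0 and 1, equal in all cells). How the log2 ratio and the weight were made is not stated in these tables or the labels. Bins measured in at least 80% of the cells were kept (5149 of 5331, 4806 of them autosomal), as were cells with 80% of autosomal bins covered and a noise under a limit of 0.267, set at 3 scaled median absolute deviations over the median (145 of 150 cells). Ratios were centred on each cell's autosomal median. Segments of at least 5 bins were found by optimal partitioning on squared errors, each break costing 3 times the log of the bin count. The calling was run on simulated steps, planted in the values of kept cells less their segment means. Those steps lay beyond the thresholds, so that run says nothing on levels near the thresholds. Most alike bins are those of highest r on another chromosome. The named genes are the 6 markers and, from the lists of 20 and 15 genes, those that met the 20% criterion in a tumour, besides Plau and Pvr, which were picked after their values were seen. Members and lists were chosen with earlier results of these data known. The Plaur run, T9 cell 180130 and the 2.5 Mb segments were taken up after seeing the data. 1 engineered locus is not reported here. Software was numba 0.67.0, scipy 1.17.1, pandas 2.3.3 and numpy 2.4.6 on Python 3.11.15, with matplotlib 3.10.9.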

Additional observations from a re-analysis of the deposited data

How the results depend on the processing

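Gain of Slc4a11 in T7 ranged from 60.4% to 81.3% of cells under all alternatives except the stricter thresholds, and was 27.1% under those. The levels of the 11 bins around the markers changed sign in 7 of 18 cases with ratios from depth, 3 of them in T1, and in 4 of 18 with mode centring, 0 of them in T1. With ratios from depth, T1 calls of Plaur turned from 8.51% lost and 0% gained to 2.13% lost and 17.02% gained, and Tigit was lost in 55.3% of T1 cells (main 0%). The loss of Itga2 in T1, at 21.3%, fell under the 20% criterion by the bin alone (14.9%), the median or weighted mean of 11 bins, the whole chromosome, the stricter cell filter, the stricter thresholds and without 50 bins alike in all tumours (19.1%). Each value was counted once per alternative. Shares of cells stayed if inside their interval, other counts and percentages if within 1.5 times, and levels if within the SD over cells. Of the summary values 158 stayed and 49 moved, and for single shares and levels these counts were 543 and 64. The 4 sign changes with mode centring are among those that stayed. Under the stricter thresholds, Itga2 was lost in 2.13% of T1 cells, the number of changed markers in T1 was 0 (main 1), the share of cells with 2 or more markers called was 0% in T1 and 0% in T9 (main 14.9% and 6%), the changed autosomal bins were 12.5% in T1 and 4.52% in T7 (main 31.8% and 16.1%), the partner genes 0 in T1 and 1 in T9 (main 4 and 2) and the transition genes 1 in T1 and 0 in T7 (main 2 and 1). Under the looser thresholds of 0.2 and -0.25, 4 markers changed in T1 and 1 in T9, 2 or more were called in 53.2% and 20% of the cells, 74.8% and 23.2% of the bins changed, and so did 13 and 4 partner genes and 11 and 3 transition genes. With ratios from depth, 4 markers, 52.2% of the bins, 12 partner genes and 5 transition genes changed in T1, 3 partner genes in T7, and 5 partner genes and 1 transition gene in T9. With the stricter cell filter, which kept 25 T1 cells, 0 markers and 2 partner genes changed in T1. A penalty of 2 gave 4 partner genes in T9 and a penalty of 6 gave 2 in T1. The bin alone gave 54.6% of bins changed in T1. The number of markers changed in T1 was 0 without 50 bins alike in all tumours, with the median or the weighted mean of 11 bins, with the whole chromosome and at a criterion of 30%. At 30%, 18.2% of the bins, 2 partner genes and 1 transition gene changed in T1. At 10%, 2 markers, 11 partner genes and 4 transition genes changed in T1, 2 transition genes in T7, and 1 marker, 20.1% of the bins, 4 partner genes and 1 transition gene in T9. The causes of these shifts were not tested. No paired analysis was possible because each sample is 1 cell and no cell of a tumour is matched to a cell of another. What the order of the cell numbers stands for is not known. In T7, cells late in that order mostly had fewer sequenced bases, and the first ones were all gained at Slc4a11. The reason was not tested.

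Each tumour is 1 sample of 1 mouse, so the spread over cells says nothing about other tumours. Levels are relative to each cell's autosomal median, and a bin of 500 kb cannot separate a marker from its neighbours. A change under 10 Mb is called only within a longer segment, as beside Plaur. The amplification method is not stated in the labels used here, wells with more than 1 cell were not searched for, and no RNA was used. T1 cells had the largest noise, and several of their intermediate levels differed between the deposited ratios and ratios from depth, for reasons that were not tested.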
